A study of Drosophila melanogaster with 2 samples.

Results

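The sites described here are the 2526 entries that follow the IDR set, down to rank 6500, in the pooled peak list of a Six4-GFP chromatin immunoprecipitation and sequencing (ChIP-seq) experiment, out of 30000 entries in that list. IDR, the irreproducible discovery rate, is the procedure by which the authors kept peaks, and the set it kept was identical to the first entries of the pooled list. The sites below it were chosen by the pooled signal value that the authors' peak caller gave each entry. Embryos came from 1 transgenic Drosophila melanogaster line, strain Six4-GFP, which stably expresses Six4 with GFP at its C terminus, and chromatin was recovered with an antibody to GFP. Whole embryos of mixed sex were collected at 0-16 hours, and chromatin was sonicated to a size range of 200-800 bp. The 2 samples were biological replicates 1 and 3 of a single group. Neither another condition nor a control library was analysed here, and all comparisons are between ranges of rank, between classes of site or between a summit and its flanks. Every cell type of the embryo contributed to these lists, and the cells in which a site was occupied cannot be told apart. Library depths are unknown. The intervals and tests below count sites and measure no spread between samples.

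Six4 belongs to the sine oculis family of homeodomain transcription factors, whose other fly members are sine oculis and Optix. These proteins bind DNA through a conserved family domain and a homeodomain and act with Eya proteins, which bring transcriptional activity to the complex. In the fly embryo Six4 is known for its part in patterning mesoderm derivatives, including somatic muscles, fat body and the somatic cells of the gonad. The IDR procedure ranks peaks in replicates and keeps those whose ranks are reproducible. An entry below its threshold can be a weakly occupied site, a site occupied in few cells, a shoulder of a stronger peak or background, and the rank alone does not separate these.

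Sequence under the summits is shown first, because the words in capitals are those whose frequency is described further on. Each line holds 201 bases of the forward strand of dm6 (Release 6 genome, NCBI RefSeq), 100 bases to each side of the summit, and no window overlaps an exon. Capitals mark 4 words on either strand: TGATAC, the recognition core of Six4-type homeodomains; TATCGATA, the DNA replication-related element (DRE) bound by Dref; GGTCACACT, the promoter element called Motif 1, bound by M1BP; and CACTGAGA, an octamer for which no binding protein is named here. Not every chromosome arm was eligible for printing. Among the sites on eligible arms whose windows overlap no exon, the first 6 lines are the strongest that hold TGATAC. Each line is named for the protein-coding gene with the nearest transcription start site (TSS).
CG34435 (chrX:5604265-5604465): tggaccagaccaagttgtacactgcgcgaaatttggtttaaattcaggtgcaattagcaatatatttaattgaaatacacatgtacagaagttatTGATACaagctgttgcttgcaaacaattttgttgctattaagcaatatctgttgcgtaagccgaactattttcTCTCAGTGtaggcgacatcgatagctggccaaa
CG32547 (chrX:18479772-18479972): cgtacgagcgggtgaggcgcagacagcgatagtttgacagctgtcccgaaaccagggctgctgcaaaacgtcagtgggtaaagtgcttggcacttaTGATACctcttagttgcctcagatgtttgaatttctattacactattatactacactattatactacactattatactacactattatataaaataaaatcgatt
vvl (chr3L:6816299-6816499): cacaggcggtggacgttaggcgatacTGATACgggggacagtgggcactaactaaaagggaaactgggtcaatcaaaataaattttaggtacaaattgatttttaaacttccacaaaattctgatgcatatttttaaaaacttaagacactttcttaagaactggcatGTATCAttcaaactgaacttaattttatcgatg
drongo (chr2L:846264-846464): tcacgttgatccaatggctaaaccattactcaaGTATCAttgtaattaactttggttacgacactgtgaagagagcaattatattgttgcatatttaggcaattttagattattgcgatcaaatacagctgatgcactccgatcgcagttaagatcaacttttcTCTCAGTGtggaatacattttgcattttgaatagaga
CG9386 (chr3R:9555445-9555645): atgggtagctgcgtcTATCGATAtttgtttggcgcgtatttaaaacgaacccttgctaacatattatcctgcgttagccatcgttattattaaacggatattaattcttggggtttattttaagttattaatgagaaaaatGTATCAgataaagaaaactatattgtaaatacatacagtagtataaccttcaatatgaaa
CASK (chr3R:21824196-21824396): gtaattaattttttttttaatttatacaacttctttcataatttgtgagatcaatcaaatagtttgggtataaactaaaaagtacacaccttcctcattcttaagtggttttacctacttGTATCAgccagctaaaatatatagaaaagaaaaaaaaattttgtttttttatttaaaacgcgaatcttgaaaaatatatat
The CG34435 and drongo sites lay in introns, the vvl and CASK sites in intergenic sequence, and the CG32547 and CG9386 sites within 500 bp of a TSS. TGATAC lay 2.5 bp before the summit base in the CG34435 window and 1.5 bp before it in the CG32547 window, measured to the centre of the word. The vvl window held 2 copies. In the CG34435 and drongo windows the octamer CACTGAGA occurred too, and the CG9386 window also held TATCGATA. Under the same limits, the following lines show the strongest further sites with TATCGATA, with GGTCACACT, and, away from promoters, with CACTGAGA.
caps (chr3L:13223518-13223718): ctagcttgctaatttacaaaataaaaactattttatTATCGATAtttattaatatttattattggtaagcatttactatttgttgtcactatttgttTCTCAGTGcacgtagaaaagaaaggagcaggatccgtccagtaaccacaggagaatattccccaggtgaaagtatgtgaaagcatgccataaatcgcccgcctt
hth (chr3R:10564373-10564573): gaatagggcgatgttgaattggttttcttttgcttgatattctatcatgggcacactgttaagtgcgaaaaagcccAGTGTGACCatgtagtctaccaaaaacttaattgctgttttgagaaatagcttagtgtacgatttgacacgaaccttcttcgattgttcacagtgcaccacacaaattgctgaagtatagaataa
glec (chr3R:21856267-21856467): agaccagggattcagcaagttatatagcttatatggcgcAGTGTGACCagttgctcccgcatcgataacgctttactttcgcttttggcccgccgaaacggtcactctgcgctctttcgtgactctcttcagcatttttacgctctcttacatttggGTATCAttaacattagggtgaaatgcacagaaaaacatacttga
CG8312 (chr3R:9598108-9598308): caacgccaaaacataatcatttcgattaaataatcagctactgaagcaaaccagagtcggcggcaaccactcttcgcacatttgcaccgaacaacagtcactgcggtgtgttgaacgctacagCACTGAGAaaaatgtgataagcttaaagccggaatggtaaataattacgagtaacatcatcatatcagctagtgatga
The caps site was intergenic and held both TATCGATA and CACTGAGA, the latter 0.5 bp from the summit base. The hth and CG8312 sites lay in introns. The glec site lay 101 bp upstream of the glec TSS and held GGTCACACT and TGATAC.

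Pooled signal fell from 81.1 at the first of these sites to 57.1 at the last, with a median of 66.7. These values chose the sites and are given as a description. In the IDR set signal ranged from 81.1 to 1741 with a median of 128, and in the following band of equal size, the 2526 entries after rank 6500, it ranged from 45.4 to 57.1. The authors' −log10 q lay between 2.01 and 3.21 (median 2.69), which corresponds to q from 0.00985 down to 0.000623. Each of the 2526 intervals was 424 bp wide. No gap in signal separated the band from its neighbours. The last IDR entry, near CG32066, had a signal of 81.062 and the first entry below it, in an intron of T48, a signal of 81.0585. T48 encodes a transmembrane protein needed for apical constriction in gastrulation. At the lower edge, an entry 338 bp upstream of Corp had 57.1488 and the entry outside, near Tango2, had 57.137.

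The 10 strongest of these sites lay near T48, cv-c, nmo, CG8312, AcCoAS, CG6163, FASN1, Hr4, Lip4 and CG10657. The nmo gene encodes a kinase of Wnt and BMP signalling, FASN1 fatty acid synthase, AcCoAS acetyl-CoA synthetase and Hr4 a nuclear receptor. Summits at nmo, AcCoAS and FASN1 lay 100, 322 and 216 bp upstream of the TSS, whereas those in T48, cv-c, CG8312, Hr4 and CG10657 were intronic. The cv-c site ranked 4247 in replicate 1 and 3493 in replicate 3. At FASN1 the ranks were 10388 and 3145, and at T48 they were 2299 and 8938, so neighbouring pooled ranks concealed different orders in the replicates. The 5 weakest sites lay near olf413, CG42713, elB, Pbgs and Corp, and the Pbgs site, at the gene of a heme synthesis enzyme, was 50 bp upstream of its TSS.

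Of the 2526 summits, 1102 lay within 500 bp of an annotated TSS. This promoter share of 43.6% (95% exact Clopper-Pearson interval 41.7 to 45.6%) stood beside 30.7% over all pooled entries and 13.6% of the bases of the chromosome arms. A further 951 summits (37.6%) were intronic and 405 (16.0%) intergenic. Exonic summits away from promoters were few. Only 4 (0.158%) fell in coding sequence, which makes up 13.9% of the arms, 30 (1.19%) in 3′ UTRs, 14 (0.554%) in 5′ UTRs and 20 (0.792%) in other exons.

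In promoter share the band stood between its neighbours. The share was 49.8% in the IDR set, 6.17 percentage points above the 43.6% found here (Fisher's exact test, two-sided, exact adjusted p = 1.79e-05), and 38.3% in the following band, 5.34 points below (exact adjusted p = 0.000586). Introns were more frequent here than in the IDR set, at 37.6% against 34.1% (exact adjusted p = 0.0114), and so was intergenic sequence, at 16.0% against 13.8% (exact adjusted p = 0.0303). Against the following band, intergenic summits were fewer, at 16.0% against 19.7% (exact adjusted p = 0.00253), while the intron shares of 37.6% and 37.9% did not pass the test (exact adjusted p = 0.898). Coding-sequence summits numbered 4 here and 25 in the following band (exact adjusted p = 0.000586), and 8 in the IDR set (exact adjusted p = 0.898). Summits in 3′ UTRs made up 1.19% here and 0.629% in the IDR set (exact adjusted p = 0.0367). In the remaining tests against either neighbour, those on 5′ UTRs and other exons and on 3′ UTRs against the following band, no adjusted p was under 0.607. These 14 tests were adjusted together by Benjamini-Hochberg, treat sites as units, and can give p-values that are too small because neighbouring sites are not independent.

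**Figure D1:**
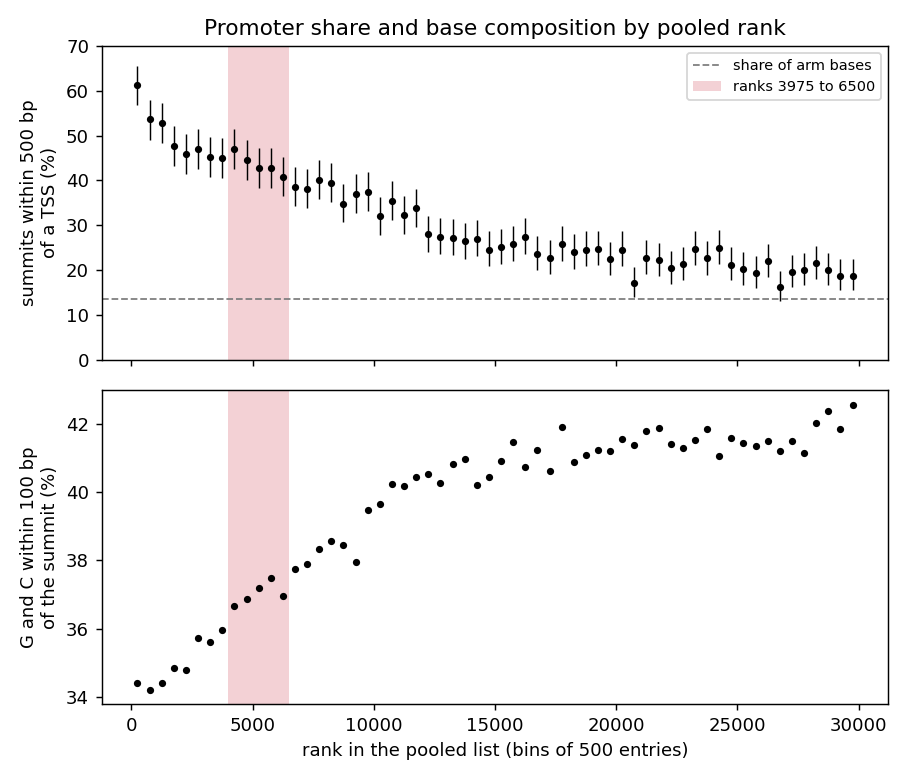
Promoter share (upper panel, percent with 95% Clopper-Pearson intervals) and mean G and C content within 100 bp of the summit (lower panel, percent) in consecutive bins of 500 entries of the pooled list, with the 2526 entries from the end of the IDR set to rank 6500 shaded and the promoter share of arm bases dashed. Promoter share runs from 61.2% in the first bin to 18.8% in the last and G and C content from 34.4 to 42.6%, without a step at either edge of the shaded band.

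By bins of 500 ranks the promoter share inside the band was 47.0% at ranks 4001 to 4500 and 40.8% at ranks 6001 to 6500, with intervals of 42.6 to 51.5% and 36.5 to 45.3% that overlap. In the IDR set the promoter share fell from 61.2% at ranks 1 to 500 to 45.2% at ranks 3001 to 3500, a value near those of the band. The plot of promoter share by rank shows a decline across the whole list.

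Summits at promoters lay mostly upstream of the start. Of the 1102, 817 (74.1%, interval 71.4 to 76.7%) were upstream, with a median position of 71 bp before the TSS and quartiles at 178.5 bp before and 3 bp after it. In the IDR set 83.4% were upstream with a median of 116 bp before the TSS. In the following band the values were 67.8% and 60 bp, and among entries beyond rank 15000 they were 51.1% and 6 bp. Sites with start sites on both strands within 500 bp, as at divergent gene pairs, made up 13.3% of the band (335 sites), against 18.6% of the IDR set, 9.26% of the following band and 6.92% of all pooled entries.

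**Figure D2:**
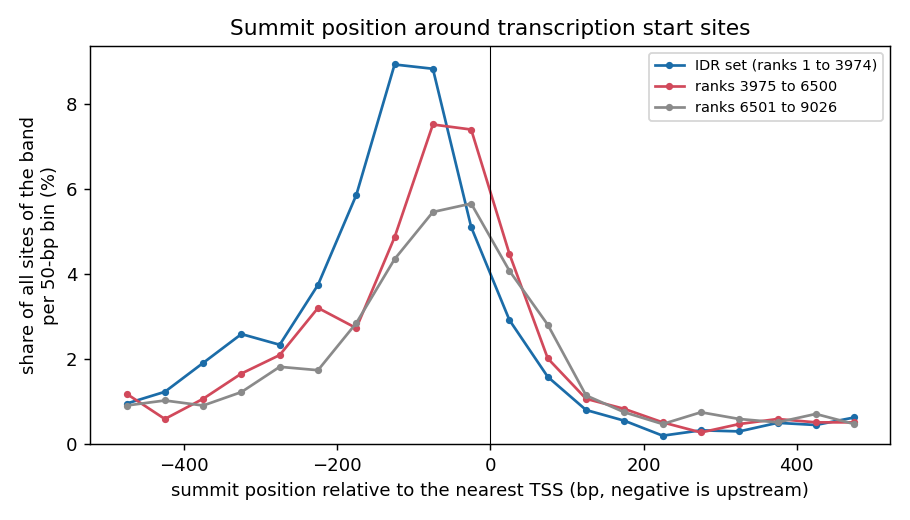
Position of summits relative to the nearest TSS (bp, negative is upstream) in 50-bp bins, as a percentage of all sites of each band: the IDR set (blue), the sites below it (red) and the following band (grey). The red curve peaks in the bins within 100 bp upstream of the TSS, nearer to the TSS than that of the IDR set, whose median position is 116 bp upstream.

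The sequence at the summits was rich in A and T. Windows of 201 bp held 37.1% G and C, against 42.5% in windows centred 1000 bp to either side, a difference of −5.44 percentage points. The difference was −7.57 points in the IDR set, −3.87 in the following band and −0.375 beyond rank 15000. It was −6.27 points at promoters (38.1% against 44.4%) and −4.80 away from them (36.2% against 41.0%).

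Of 12 motifs searched on both strands, 7 occurred more often at the summits than in a flank (exact McNemar test, two-sided, Benjamini-Hochberg adjusted over the 12 motifs). TGATAC was present in 178 windows, or 7.05% (interval 6.08 to 8.12%), against 4.67% in the flanks, a ratio of 1.51 (exact adjusted p = 0.0025). The same word occurred in 4.54% of 201-bp windows around all annotated TSSs and in 4.81% of windows spaced along the arms. In the IDR set the TGATAC share was 6.49% with a ratio of 1.50, and in the following band 5.58% with a ratio of 1.15. A second word tied to this family, TCAGGTT, the start of the MEF3 site bound by vertebrate relatives of Six4, was present in 26 windows, 1.03% against 1.31% in the flanks (exact adjusted p = 0.565).

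Promoter elements gave the largest ratios among the 12. TATCGATA was found in 109 windows (4.32% against 0.515%, ratio 8.38, exact adjusted p = 2.49e-18) and GGTCACACT in 52 (2.06% against 0.455%, ratio 4.52, exact adjusted p = 6.69e-07). The TATCGATA ratio was 5.87 in the IDR set and 7.91 in the following band, and the GGTCACACT ratio 4.42 and 10.2. CGATA, the word bound by the insulator protein Beaf-32, which is contained in TATCGATA, was found in 738 (29.2% against 21.5%, ratio 1.36, exact adjusted p = 7.13e-10). The homeodomain palindrome TAATTA was present in 401 windows (ratio 1.35, exact adjusted p = 0.000367). TGATAA, the GATA-factor word that shares its first 5 letters with TGATAC, was present in 420 (ratio 1.22, exact adjusted p = 0.00227), and the Mef2 site in 100 (ratio 1.47, exact adjusted p = 0.025). The Mef2 call was lost with the same ranks of either replicate's list (exact adjusted p = 0.0672 for replicate 1 and 0.322 for replicate 3), and the TGATAA call with those of replicate 3 (exact adjusted p = 0.138). Motifs that did not pass were CAGCTG and CATATG, both E-boxes (ratios 1.03 and 1.07), GAGAGAG of the GAGA factor (1.23) and CAGGTAG of Zelda (0.746). As background, windows around all TSSs and windows along the arms held CGATA at 37.1% and 21.4%, TAATTA at 9.39% and 12.5%, and the GATA-factor word at 13.7% and 11.99%. The Mef2 site stood at 3.27% and 2.48%, CATATG at 4.06% and 5.50%, GAGAGAG at 4.69% and 2.44%, CAGGTAG at 1.08% and 1.06%, and TCAGGTT at 1.36% and 1.54%. Along the arms, 0.558% of windows held TATCGATA, 0.186% GGTCACACT and 8.38% CAGCTG.

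Sites at promoters and sites away from them held different words. Away from promoters, where 1424 sites lay, TGATAC was present in 7.79% of windows against 4.21% in the flanks (ratio 1.85, exact adjusted p = 0.00145). At promoters it was present in 6.08% against 5.26% (ratio 1.16, exact adjusted p = 0.582). The difference between both classes, by Fisher's exact test on the windows in which only the summit or only the flank held the word, gave an adjusted p of 0.0734 over the 12 motifs and did not pass. TATCGATA was present at 9.07% of promoter sites (100 of 1102) against 0.544% in their flanks, and at 0.632% of the other sites (9 of 1424) against 0.492% (adjusted p of the difference 0.000183). For comparison, 6.45% of windows around all annotated TSSs held TATCGATA. GGTCACACT was present at 4.26% of promoter sites and 0.351% of the others (adjusted p of the difference 0.025), beside 4.42% of all TSS windows.

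CAGCTG, an E-box bound by several bHLH proteins, went in opposite directions. At promoters it occurred more often at summits than in flanks (14.7% against 9.94%, exact adjusted p = 0.000203) and away from promoters less often (5.34% against 8.57%, exact adjusted p = 0.00145), with an adjusted p of the difference of 3.44e-07. All TSS windows held CAGCTG at 13.4%. The Mef2 site had a ratio of 2.32 at promoters and 1.07 elsewhere (adjusted p of the difference 0.000202), and CGATA ratios of 1.82 and 0.962 (adjusted p of the difference 7.69e-14). The homeodomain palindrome, the Twist E-box CATATG and the GAGA word differed between the classes as well, each with an adjusted p of 0.0456. The test of the difference between the classes was chosen after the data had been seen.

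**Figure D3:**
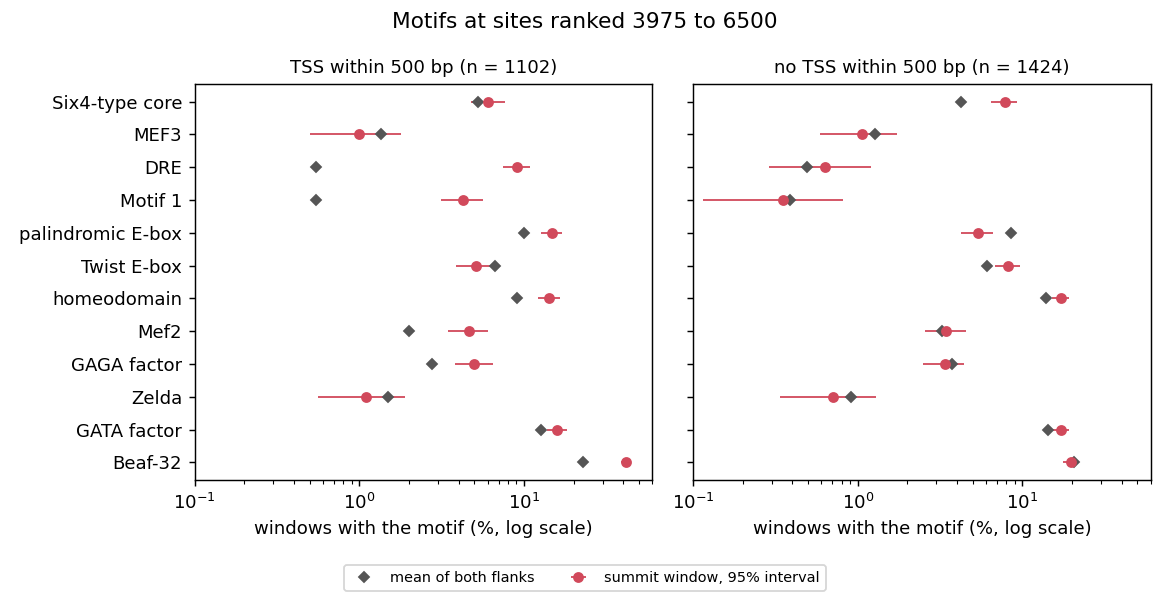
Percentage of 201-bp windows holding each of the 12 motifs (log scale) at sites with a TSS within 500 bp (left, n = 1102) and without one (right, n = 1424). Circles are summit windows with 95% Clopper-Pearson intervals and diamonds the mean of both flanks. DRE stands at 9.07% over flanks of 0.544% on the left and at 0.632% over 0.492% on the right, while the Six4-type core stands at 6.08% over 5.26% on the left and 7.79% over 4.21% on the right.

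Every hexamer was also counted, 2080 in all with a word and its reverse complement counted as 1. Of these, 17.5% (365) were more frequent at summits and 31.1% (646) less frequent at an adjusted p under 0.05. The highest ratios among those in at least 2% of windows belonged to CGATAG (10.9% against 4.20%, ratio 2.60), TATCGA (ratio 2.34) and ACACTG (17.5% against 7.62%, ratio 2.30). The first pair overlaps the DRE. TGATAC, with its ratio of 1.51, had a lower ratio than 8 of the 102 hexamers made of its letters. The median ratio of the 102 was 1.10, and 23 of them passed the test with a higher frequency at summits. Words with no G or C had a median ratio of 1.46 and words made only of G and C one of 0.566, so the ratios followed base composition broadly. Words with 2 G or C letters, as in TGATAC, had a median ratio of 1.09.

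Octamers were counted in both classes apart. Of 32896 octamers, 0.416% (137) were more frequent at promoter summits and 0.167% (55) at summits away from promoters at an adjusted p under 0.05. This count was added after the data had been seen. At promoters the leading octamers overlapped the DRE, among them TATCGATA itself (9.07% against 0.544%, exact adjusted p = 1.47e-18), GCTATCGA (4.45% against 0.227%) and ACTATCGA (5.44% against 0.318%), and CAACACTA (2.27% against 0.136%) was listed with them. Away from promoters the highest ratio among octamers in at least 2% of windows belonged to CACTGAGA, in 72 of 1424 windows (5.06%, interval 3.98 to 6.33%) against 0.492% in the flanks, a ratio of 10.3 (exact adjusted p = 1.18e-12). The octamers next in order overlapped it or its continuation: CTCAGTGC (3.65% against 0.386%), ACTGAGAA (3.23% against 0.351%), CAGTGCAC (4.85% against 0.667%), AGTGCACC (2.18% against 0.351%) and TCAGTGCA (5.34% against 0.878%). In the windows of CG34435, drongo, caps and CG8312 printed at the start it is the word in capitals that reads CACTGAGA or, on the other strand, TCTCAGTG.

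CACTGAGA occurred in 0.726% of promoter summits of the band against 0.635% in their flanks, in 0.649% of all TSS windows and in 0.62% of windows along the arms. Sites that did not enter its choice are those of the other bands. In the IDR set it was present in 137 of 1995 sites away from promoters (6.87% against 0.501% in the flanks) and in 1.87% of promoter sites, against 0.379% in their flanks. In the following band the share away from promoters was 3.53% (55 of 1559, against 0.609%), and beyond rank 15000 1.48% (173 of 11674, against 0.754%). Of the 72 sites with the octamer, 44 were intronic and 25 intergenic. Both CACTGAGA and TGATAC were present in 5 windows, CACTGAGA or TGATAC in 178 of the 1424 (12.5%). The centre of the octamer lay at a median of 52.5 bp from the summit base, and 35 of its 74 matches fell within 50 bp, so it was not concentrated at the summit base.

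Both replicates listed nearly all of the sites. An entry of replicate 1 overlapped 2514 of the 2526 intervals and an entry of replicate 3 overlapped 2513. Both did so for 2501 (99.0%), against 99.9% of the IDR set, 95.4% of the following band and 61.2% over all pooled entries. None of the 2526 was without an entry in either. Replicate lists include background and cover 8.68% and 8.14% of the bases of the arms, and the pooled rank was made from both replicates, so this overlap is a description. Summits lay a median of 16 bp from those of either replicate. Median ranks were 5713.5 in replicate 1 and 5433 in replicate 3, counted for the overlapping entry with the nearest summit. The middle 50% of ranks ran from 4264 to 7791 in replicate 1 and from 4370 to 7151 in replicate 3.

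Few of the sites were among the strongest entries of both replicates, counted as the first entries of each list up to the size of the IDR set. By the nearest entry, 38 (1.50%) were, 828 (32.8%) were among them in 1 replicate, and 1660 (65.7%) in neither. The corresponding shares were 10.45%, 7.65% and 81.9% over all pooled entries and 0.911%, 5.54% and 93.5% in the following band. Of the 828, 454 were high in replicate 1 and 374 in replicate 3. Ranks in the replicates lay more than 2-fold apart for 870 sites (34.4%), against 21.2% of the IDR set, 36.7% of the following band and 17.2% of all pooled entries. Only entries listed in both replicates could be counted, 99.0% of these sites and 61.2% of all pooled entries. The share over all pooled entries is therefore not like for like. The sites with the largest difference in rank, CG31145, CG13506, prage and CG17029 in favour of replicate 1, ranked 2209 to 3147 there and 26758 to 27837 in replicate 3. In the opposite direction, sites near atos, yata, CG6959 and mat ranked 1168 to 3906 in replicate 3 and 26059 to 28830 in replicate 1. The atos site, ranked 1168, overlapped an IDR peak with a summit 203 bp away, and this rank can be that of the stronger peak.

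**Figure D4:**
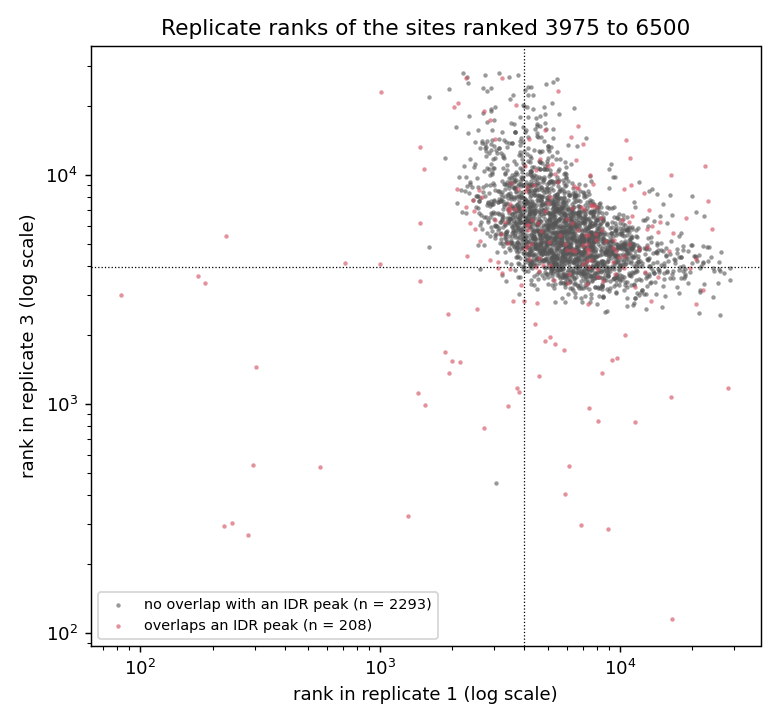
Rank in replicate 1 (x axis) and replicate 3 (y axis), both on log scales, of the 2501 sites with an entry in both, with the size of the IDR set dotted on both axes. Sites whose interval overlaps an IDR peak are red (n = 208) and the others grey (n = 2293). The lower left corner, within the size of the IDR set in both replicates, holds 29 red and 9 grey points.

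A subset sat on the flank of a stronger peak. The intervals of 208 sites (8.23%) overlapped an IDR peak, and their summits lay 199 to 386 bp from its summit, with a median of 203 bp. The overlapped IDR peaks ranked from 126 to 3904 (median 1913.5). Of the 38 sites among the strongest in both replicates, 29 belonged to this subset, and for 25 of the 29 the entry of at least 1 replicate was the one also nearest to the IDR peak. These replicate ranks can therefore be those of the stronger peak. All 8 sites with the best poorer rank were of this kind, near CG7560, CG46460, CG9135, pnut, CG32982, CG42353, Sans and scramb2. The CG7560 site, for example, ranked 5508 in the pooled list but 281 and 267 in the replicates, and its summit was 219 bp from an IDR summit. Promoter share was 59.1% in the overlapping subset (123 of 208, interval 52.1 to 65.9%) and 42.2% in the other 2318 sites (979, interval 40.2 to 44.3%).

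The 9 sites that overlapped no IDR peak and still ranked among the strongest in both replicates included the promoters of CG32576, P5CDh1, Orct and sut1, and of the ribosomal protein gene RpL18. These sites were named after their values were seen. P5CDh1 encodes a mitochondrial enzyme of proline breakdown and Orct an organic cation transporter. The CG32576 site, 53 bp upstream of its TSS, ranked 3361 and 3452 in the replicates and 4045 in the pooled list. The P5CDh1 site, 57 bp upstream, ranked 3762 and 3573, and the RpL18 site, 30 bp upstream, ranked 2610 and 3884. The Ns1 site, in an intron, ranked 453 in replicate 3 and 3044 in replicate 1, with an IDR summit 241 bp away.

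Within 1000 bp of an IDR summit lay 370 sites (14.6%), against 9.03% of all pooled entries below the IDR set and 12.2% of the following band. Within 5000 bp lay 1162 (46.0%), and the median distance was 5885 bp. Another site of the band lay within 1000 bp for 202 sites (8.0%) and within 5000 bp for 806 (31.9%), with a median of 9448 bp to the nearest. Arms 2L, 2R, 3L, 3R, 4 and X held 430, 455, 586, 586, 13 and 456 sites. X held 18.1% of the sites and 17.6% of the length of the arms. On the 4th chromosome, 1.01% of the length, lay 0.515% of the sites (interval 0.274 to 0.878%), 0.302% of the IDR set and 1.06% of all pooled entries.

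A total of 2904 of 13945 protein-coding genes (20.8%) had at least 1 of these summits between 2 kb before and 2 kb after the gene, and 2267 of them had exactly 1. The IDR set reached 4352 genes (31.2%). Genes reached by the band and not by the IDR set numbered 1483, which brought the genes reached by either to 5835 (41.8%). Among genes with an IDR summit 32.7% also had a site of the band, and among the others 15.5%. Window length moved with this count: the share was 9.69% in the fifth of genes with the shortest windows and 40.0% in the fifth with the longest. Genes with a site and no IDR summit made up 10.6% of all genes, and the median window was 6.17 kb. The lists described next stand beside these values and were not tested as sets. Median windows ran from 5.61 kb in the adult chemoreceptor list to 34.6 kb in the Hox list, and were 17.4 kb for the retinal determination list, 11.8 kb for mesoderm specification, 16.2 kb for muscle identity, 13.3 kb for the somatic gonad and 20.05 kb for fat body and hemocytes.

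The genes with the most sites were long. The gene kirre, whose immunoglobulin-domain adhesion protein marks muscle founder cells and acts in myoblast fusion, held 12 sites and 12 IDR summits in a window of 398 kb. Its 12 sites had signals from 59.4 to 79.1, 10 of them in introns. CG1677 held 10 sites beside 14 IDR summits, and sbb, a transcriptional cofactor, held 8 beside 9. Sema1a (a semaphorin), hth (a TALE homeodomain protein) and Ptp61F (a tyrosine phosphatase) held 7 each. Then followed ed, mtgo, shn and brat with 6 each. Per length, brat had 12 sites per 100 kb and kirre 3.01, beside 1.89 over the arms.

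**Figure D5:**
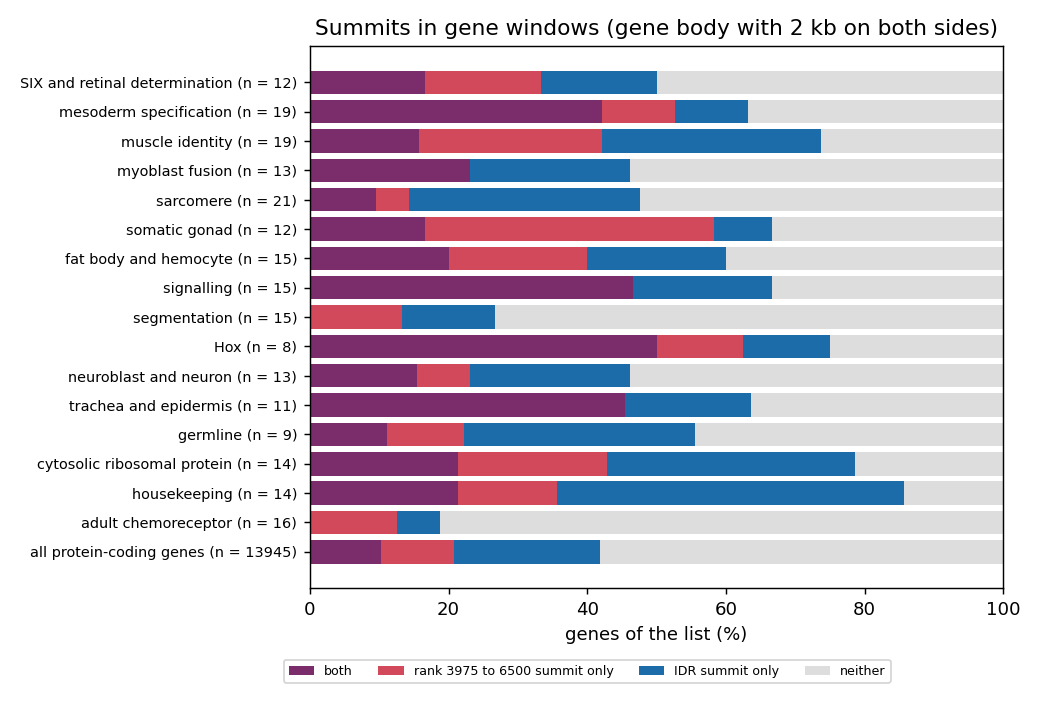
Share of the genes of 16 lists and of all 13945 protein-coding genes whose window (the gene with 2 kb before and after it) holds one of these sites, an IDR summit, both or neither, in percent. Red with purple is the share with one of these sites, which is 20.8% over all genes, 58.3% in the somatic gonad list and 12.5% in the adult chemoreceptor list.

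Among 12 genes of the sine oculis family and the retinal determination network, 4 had a site, and 2 of these, dac and ey, had no IDR summit. The dac gene encodes a nuclear cofactor that works with sine oculis and Eya, and its site lay 136 bp downstream of the TSS with a signal of 63.3, at rank 4738 in replicate 1 and 7460 in replicate 3. The ey gene encodes a Pax6 protein, and its site lay in an intron with a signal of 59.0, at ranks 7845 and 6126. The window of Six4 itself held 1 site beside 2 IDR summits, but the site lay 2 bp from the TSS of the neighbour CG11396 and 4215 bp from that of Six4. The site with the highest signal in hth, 80.3, was intronic. Neither eya, whose product is the partner of this family, nor Optix had a summit of either kind.

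Mesoderm and muscle regulators followed. Of 19 genes of mesoderm specification 10 had a site, 2 of them without an IDR summit, namely twi and pnr. The gene twi encodes the bHLH regulator of the mesoderm, and the stronger of 2 sites in its window had a signal of 70.5, with ranks 4504 and 4326 in the replicates, but lay 17948 bp from its TSS. At htl, an FGF receptor, the site was intronic, 520 bp upstream of the nearest htl TSS and 203 bp from an IDR summit. Of 2 sites in the window of stumps, its adaptor, the stronger lay at the promoter of CG14853. Neither sna nor bap had a summit. Of 19 muscle identity genes 8 had a site and 5 of these had no IDR summit, the homeodomain genes ap, caup, Ptx1, ara and lbe. The ap site had a signal of 79.7 and was intronic, 1987 bp upstream of the nearest ap TSS, with ranks of 2582 and 7673. Ptx1 held 3 sites, the strongest at 68.6. At tup, another LIM-homeodomain gene, the site lay 107 bp upstream of the TSS (signal 79.7). Neither slou nor Kr had a summit.

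Of 13 genes of myoblast fusion 3 had a site, kirre, siz and mbc, all beside IDR summits, and rst and sns had neither. Among 21 sarcomere genes the count was 3, namely Obsc, Zasp52 and Tm1, which is 14.3% beside the 20.8% of all genes, with a median window of 15.4 kb, and 9 had an IDR summit. The Obsc site lay at the promoter of CG3860.

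Among tissues that derive from mesoderm, 7 of 12 somatic gonad genes had a site, 5 of them without an IDR summit: robo2, a Slit receptor, shg, which encodes E-cadherin, arm, which encodes beta-catenin, foi and tj. The robo2 site had a signal of 77.8 with ranks of 3681 and 4924, and the shg site 72.3 with ranks of 2840 and 12535. The arm site lay 118 bp upstream of the neighbour trr. Of 15 fat body and hemocyte genes 6 had a site. They included the cofactor gene ush with 5 sites beside 10 IDR summits, and srp, a GATA factor, with 1 intronic site (signal 76.5, ranks 5259 and 4181) and no IDR summit. The collagen gene vkg was counted through the promoter of SelT, and svp and gcm had neither.

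The count for signalling genes, with a median window of 19.6 kb, was 7 of 15, all beside IDR summits. Sites lay in fz, a Wnt receptor (3), tkv, a BMP receptor (5), dpp, a BMP ligand (1), and ptc, the Hedgehog receptor (3), while wg and hh had neither kind of summit. The strongest ptc site ranked 1595 in replicate 1 and 21919 in replicate 3. Of 8 Hox genes 5 had a site, with lab and Ubx at 2 each. The stronger Ubx site ranked 3697 and 4687 in the replicates. Of 15 segmentation genes 2 had a site, en at its promoter, 143 bp upstream (signal 61.5), and slp2, and hb and kni had neither.

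Sites were counted in 3 of 13 neuroblast and neuron genes (pros, insc and para) and in 2 of 9 germline genes (vas and gcl), shares of 23.1% and 22.2% that lie near the 20.8% of all genes. In the trachea and epidermis list 5 of 11 genes (45.5%) had a site, among them grh, sn, trh and ovo, with a median window of 16.2 kb. The stronger of 2 sites in the vas window lay 23 bp upstream of vig, and the insc site lay 117 bp upstream of sktl. Among genes used in all cells, 6 of 14 cytosolic ribosomal protein genes (42.9%) and 5 of 14 housekeeping genes (35.7%) had a site. Their median windows were 5.66 kb and 8.2 kb. The RpS26 summit lay 73 bp upstream of its TSS (signal 80.5). The RpL32 site lay 335 bp from its own TSS and 26 bp from that of CG7943, and the RpS14a site 33 bp from that of RpS14b. For Tbp and Act42A the summit lay at the promoters of eIF3k and Pngl. In the list of 16 adult chemoreceptors, which embryos use little, 2 had a site, Gr66a through the promoter of BI-1 and Ir25a in an intron (signal 57.2).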

How the data were processed

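Binding of Six4-GFP was measured by ChIP-seq in 2 samples, biological replicates 1 and 3. Per the listing that accompanies the deposited files, the replicate and pooled lists derive from alignments and 1 further input of unstated content, and the IDR set derives from those lists. Each entry has a signal value, whose scale is not stated, and a −log10 q value, both from the authors' peak caller as deposited. The aligner, peak caller and IDR threshold were not given in the sources used here. The lists are on dm6, and the deposited dm3 lists were not used.

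Entries were ranked by pooled signal, with no ties, and a summit is the position the list gives. Signals were not compared between lists. Locations came from Ensembl annotation BDGP6.54 and sequence from the NCBI Release 6 genome, on 6 arms. A summit within 500 bp of any TSS was called promoter. Windows of 201 bp were compared with equal windows 1000 bp away. Percentages for flanks are the mean of both, and each McNemar test used 1 flank chosen by a seeded coin. An overlap needed 1 bp. Intervals are 95% Clopper-Pearson and cover counting error only. Tests used scipy 1.17.1 with numpy 2.4.6, pandas 2.3.3 and Python 3.11.15, with a threshold of 0.05 on adjusted p-values, and were tested on simulated data. They take sites as units and measure no spread between samples.

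The sites, the 16 gene lists and the motifs were chosen with earlier results of these data known. Of 224 listed genes, 223 matched the annotation, 4 by a synonym, and 1 was not analysed here. The result for 1 further listed gene is left out of the text. Named genes were those nearest to the 10 strongest and 5 weakest sites. In each list up to 4 genes with the strongest site and up to 2 with no summit were named, in list order, as were the 10 genes with most sites, the 8 sites with the best poorer replicate rank and the 4 with the largest rank difference each way. Listed genes with a site and no IDR summit beyond these were named after their values were seen.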

Additional observations from a re-analysis of the deposited data

How the results depend on the processing

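The promoter share was 34.6% with a window of 250 bp, 53.2% with 1000 bp and 40.7% with TSSs of protein-coding genes only. With the same ranks of 1 replicate's list it lay between 40.6% and 45.4%. The difference from the following band was 3.44 points for the weaker 50% of the sites (exact adjusted p = 0.0889). Of the 12 motifs, 2 passed for sites away from promoters, TGATAC more often at summits and CAGCTG less often. The Mef2 call was also lost with 50 bp to each side of the summit, at sites over 1000 bp from any IDR summit and away from promoters, and the TGATAA call away from promoters. Calls of TATCGATA, GGTCACACT, TAATTA and CGATA were lost away from promoters as well. Other calls were gained. GAGAGAG passed with 250 bp to each side (ratio 1.39, exact adjusted p = 0.000411) and at promoters (1.80, exact adjusted p = 0.0413). CAGCTG passed at promoters (1.48, exact adjusted p = 0.000203) and CATATG with the same ranks of replicate 3's list (1.29, exact adjusted p = 0.023). With flanks 2000 bp away CAGGTAG was less frequent at summits (0.638, exact adjusted p = 0.0227). TGATAC no longer passed with 50 bp to each side of the summit (ratio 1.53, exact adjusted p = 0.0704) or at promoters (1.16, exact adjusted p = 0.582). The composition difference was −3.11 points with 250 bp to each side and −6.27 at promoters. Entries of both replicates overlapped 97.0% of sites at a reciprocal overlap of 50%, 84.5% with summits within 100 bp, 42.0% with the first 6500 entries of each list and 7.44% with as many entries as the IDR set holds, where any overlapping entry counted. Within 500, 2000 and 5000 bp of an IDR summit lay 8.31%, 25.6% and 46.0%. With genes assigned by 5 kb around each TSS the count of genes was 3556, and by the nearest TSS 1940.

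Ratios crossed 1 for CAGCTG with 50 bp windows (0.975), flanks 500 bp away (0.99), replicate 3 alone and sites away from promoters (0.623). They did so for CATATG with 50 bp windows (0.957) and at promoters (0.762), for GAGAGAG with 50 bp windows (0.866), flanks 500 bp away (0.924) and sites away from promoters (0.906), and for GGTCACACT (0.909) and CGATA (0.962) away from promoters. Among single motifs 85 of 110 alternatives kept both direction and side of the threshold. With the same ranks of 1 replicate's list, the motif count was 6 in each, the TGATAC ratio 1.51 to 1.57, the CAGCTG ratio 0.904 to 1.08, the difference from the IDR set −9.02 to −5.11 points, that from the following band 6.65 to 7.72 points, and the gene count 2865 to 2966. The classes at and away from promoters hold fewer sites than the whole band, and the causes of these changes were not tested. No paired analysis was possible because both samples belong to 1 group. Depth is unknown, so it cannot be said which replicate's ranks are the more precise.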
